A study of Mus musculus with 74 samples.

Results

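The expression of 8 skeletal muscle genes was followed across the reprogramming of mouse fibroblasts with engineered or wild-type Sox factors: the lineage factors Myod1, Myog and Myf5, and the contractile genes Myh3, Tnnt3, Mylpf, Acta1 and Actc1. They were taken by gene name from both expression tables of the series, and were chosen by their measured values, because muscle genes were higher after doxycycline (Dox) withdrawal in cells made with eSox17FNV and in the line made with Brn4, Klf4, c-Myc and eSox17FNV. Of the 8 genes, 7 were analysed, 5 of the 21241 genes in the table of the NSC-medium experiment and 7 of the 20558 genes in the table of the parallel experiment. Myod1 was not analysed here, and Myog and Myf5 were analysed only in the parallel experiment. All the analysed members passed the filter on low values, which asked for 10 or more in 2 or more libraries. Because those after-Dox and line values chose the genes, they are given below as a description without p-values, the difference between media after Dox included, and tests are kept to other comparisons. Some of these still share libraries with the choice. In it, primary neural stem cells were the reference for the line. The parallel libraries with Dox were the reference for those after Dox. A p-value from such libraries is not independent of the choice. Myf5 passed the filter only through 3 libraries of NSC medium after Dox, and Myog through 2 of those and 1 NSC library.

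The study transduced mouse embryonic fibroblasts (MEFs) with lentiviruses that express transcription factors under Dox, together with one for the activator M2rtTA, and sequenced poly(A) RNA along the way to induced neural stem cells (iNSCs). In the NSC-medium experiment Sox2-GFP MEFs received Brn4, Klf4 and c-Myc with eSox17FNV, with Sox17 or with Sox2, groups called BKM_FNV, BKM_Sox17 and BKM_Sox2 here, or Klf4 with eSox17FNV alone, called K_FNV. These cells were in NSC medium (for neural stem cells, containing the growth factors bFGF and EGF), with 1 µg/mL Dox for 18 days (sampled on days 4, 8, 12 and 18) and without Dox afterwards (days 24 and 30). In the parallel experiment MEFs carrying Nanog-CreER, Rosa26-tdTomato and Sox2-GFP received Klf4, c-Myc and eSox17FNV, were kept in N2B27 medium with Dox to day 8 (sampled on days 4 and 8), and were then divided between NSC medium and serum-free LIF/2i medium, which supports pluripotent cells, with Dox to day 16 (days 12 and 16) and without it on days 20 and 24. The reference groups were Sox2-GFP MEFs at passage 1 and, at passage 15 in NSC medium, Sox2-GFP primary neural stem cells (NSCs), an iNSC line made with Klf4 and eSox17FNV (iNSC_KF) and one made with Brn4, Klf4, c-Myc and eSox17FNV (iNSC_BKMF). All cells thus carried Sox2-GFP, and MEF, NSC and iNSC_BKMF values appear in both tables, so those in the parallel table come from Sox2-GFP cells that are not the starting MEFs of that experiment. Each group held 2 libraries, except BKM_Sox17 and BKM_Sox2 on day 30 with 1 each. The labels do not say whether libraries of a group were separate cultures, whether a line is a clone, or what share of cells had taken up the factors, so a p-value reflects no more than how far libraries of a group differ.

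Skeletal muscle arises from somite cells that carry Pax3 and Pax7, in which the basic helix-loop-helix factors Myf5 and Myod1 set muscle fate and Myog drives differentiation into fibres. These factors bind DNA at E-boxes, short sites of the form CANNTG, next to genes of the sarcomere. The sarcomere genes among the members encode the embryonic myosin heavy chain (Myh3), the regulatory light chain of fast skeletal myosin (Mylpf), fast skeletal troponin T (Tnnt3) and the skeletal and cardiac alpha-actins (Acta1 and Actc1). The embryo's skeletal muscle uses both actins, and actin genes are also known targets of serum response factor, which binds the CArG box and acts in smooth muscle and in contractile fibroblasts.

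Promoters are shown for Myog, whose product drives fibre formation, for Mylpf, which had the largest difference between media, and for the actins Acta1 and Actc1, whose values moved in opposite ways between MEFs and NSCs. RefSeq promoters on GRCm38.p6, 300 bases long and spanning the start site, were found for 6 of the 8 genes, Tnnt3 and Myod1 being those without. Capitals mark matches to the E-box CANNTG and, in the actins, to the CArG box, searched on both strands. Sequences run 5′ to 3′ on the gene's strand.
Myog (chr1:134289754-134290053, plus strand): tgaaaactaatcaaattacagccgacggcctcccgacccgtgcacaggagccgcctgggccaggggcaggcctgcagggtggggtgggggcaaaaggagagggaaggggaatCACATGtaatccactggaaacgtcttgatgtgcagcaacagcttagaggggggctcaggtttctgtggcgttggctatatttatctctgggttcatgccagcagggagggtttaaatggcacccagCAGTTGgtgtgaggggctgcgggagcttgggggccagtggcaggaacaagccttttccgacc
Mylpf (chr7:127211358-127211657, plus strand): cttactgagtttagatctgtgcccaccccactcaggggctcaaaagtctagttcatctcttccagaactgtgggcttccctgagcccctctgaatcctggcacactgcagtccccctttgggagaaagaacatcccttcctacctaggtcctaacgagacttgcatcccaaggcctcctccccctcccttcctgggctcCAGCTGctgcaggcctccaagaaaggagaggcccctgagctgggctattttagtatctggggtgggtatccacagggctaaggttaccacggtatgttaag
Acta1 (chr8:123894726-123895025, minus strand): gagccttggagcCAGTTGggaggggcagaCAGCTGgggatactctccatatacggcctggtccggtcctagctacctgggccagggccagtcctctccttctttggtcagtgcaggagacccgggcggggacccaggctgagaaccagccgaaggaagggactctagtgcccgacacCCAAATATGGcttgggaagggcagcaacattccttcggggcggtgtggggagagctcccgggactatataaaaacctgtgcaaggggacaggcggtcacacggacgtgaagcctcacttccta
Actc1 (chr2:114052826-114053125, minus strand): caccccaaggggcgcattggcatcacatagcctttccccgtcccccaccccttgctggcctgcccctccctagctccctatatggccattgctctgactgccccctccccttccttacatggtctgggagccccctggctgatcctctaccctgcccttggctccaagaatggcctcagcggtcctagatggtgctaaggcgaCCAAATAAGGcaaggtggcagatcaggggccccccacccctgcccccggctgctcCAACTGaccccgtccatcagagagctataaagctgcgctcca
The Acta1 and Actc1 windows each held 1 CArG box, beginning at positions -73 and -47 from the start site, against 1.629% of all 32841 promoters of this length. An E-box was found in all 4 windows shown and in that of Myh3, but not in that of Myf5. Of all promoters, 72.32% held one. The E-box of Mylpf, at position -51, and 1 of the 2 in Acta1 read CAGCTG, a form present in 16.3% of promoters. These matches describe the letters in the window and do not show that any factor was bound.

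The values were the authors' normalized tag counts, whose columns nearly share 1 distribution within a table but for 1 library, so the number of reads behind a value is unknown and no counting interval is given. Columns did differ at the low end, where many member values lie. The share of genes at 0 ran from 9.56% to 14.8% in the NSC-medium experiment and from 6.64% to 12.2% in the parallel one, without that library. Levels are compared here within a gene only, since they are not corrected for gene length. Replicates correlated on the log2 scale at 0.949 to 0.961 and 0.937 to 0.955 in the 2 tables. The exception was BKM_Sox2 day 24 replicate 1, which correlated at 0.0578 with its replicate, had a median value of 32 against 166 in the others, and is left out of all values below unless named. The labelled cell types matched their markers: 8 of 8 neural stem cell genes were higher and 8 of 8 fibroblast genes lower in NSCs than in MEFs, where 34.4% of all genes differed at the thresholds given below. Libraries of bulk cells cannot tell a few cells with much muscle RNA from many cells with little. A difference below is on the scale log2(value + 2), with its standard error (SE). A gene was called, and is said to have risen or fallen, when limma's adjusted p was under 0.05 and the difference was at least 1, which is 2-fold.

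Myf5, the earliest of the lineage factors, was present in the parallel experiment only in NSC medium after Dox. It was listed at 108 and 0 on day 20 and at 113 and 115 on day 24 in that medium, and at 0 in every other group, so that 23 of the 26 libraries were at 0. No library had a value between 0 and 108, so the 3 positive libraries stand at nearly the same level and the scale below it is not resolved. In LIF/2i all 4 libraries without Dox were at 0. No fold or test is given, since the positive libraries are among those that chose the genes and the other medium is at 0.

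Myog, which acts after Myf5 in the lineage, was at 3 and 4 on day 20 and at 26 and 21 on day 24 in NSC medium. The day 24 libraries were the highest of the 26, followed by 1 of the 2 NSC libraries at 10 (the other was at 0). In NSC medium with Dox all 4 libraries were at 0, and in LIF/2i the values were 1, 0, 2 and 0 with Dox and 6, 0, 4 and 2 without. After Dox the media overlapped on day 20 and did not on day 24, where LIF/2i had 4 and 2. These values too took part in the choice of genes, and no test is given.

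**Figure D1:**
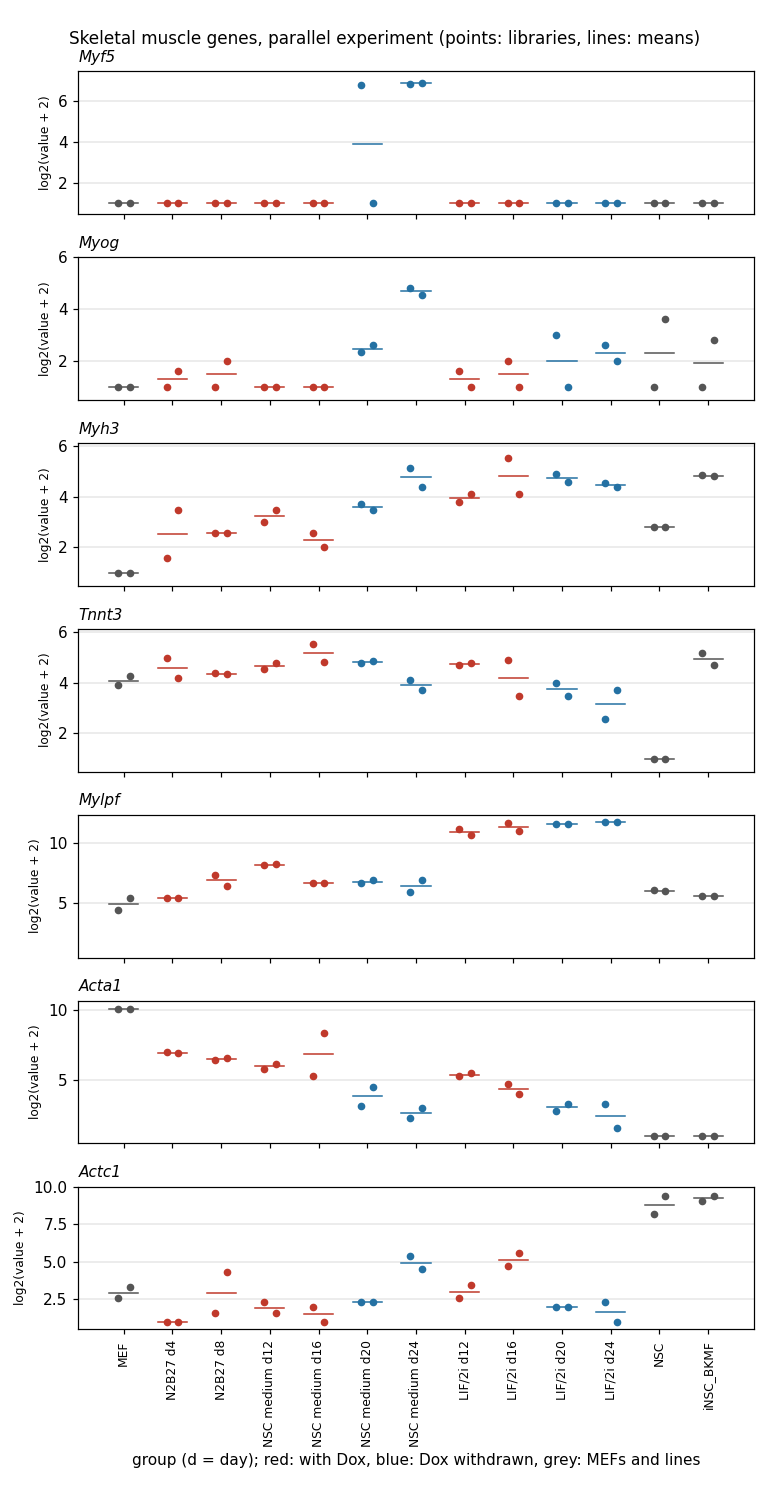
Values of the 7 analysed muscle genes in the 13 groups of the parallel experiment, as log2(value + 2) on the vertical axes, with 1 point per library, a line at the group mean, and colours for Dox. Myf5 and Myog are highest in NSC medium on day 24 (113 and 115, 26 and 21), while Mylpf is highest in LIF/2i (1575 to 3411).

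Myh3, the myosin heavy chain of embryonic fibres, was low in most groups of the NSC-medium experiment. BKM_FNV cells were at 6 and 5 on day 24 and 25 and 25 on day 30, against 0 to 2 in every library of the other cocktails after Dox. Their own values with Dox were 0 to 8. The iNSC_BKMF line was at 22 and 21 and iNSC_KF at 23 and 9, against 3 and 3 in NSCs and 0 and 0 in MEFs. Thus both lines and the BKM_FNV cells of day 30 lay above the NSCs, with no overlap between the lines and the NSCs.

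Of these, iNSC_KF against NSCs is a comparison the choice of genes did not use, and Myh3 rose in it by 1.73 ± 0.44 (SE, 2 libraries against 2; adjusted p = 0.00439). The same NSC libraries were the reference for iNSC_BKMF in that choice, so this p-value is not independent of it. With a pseudocount of 10 the difference was not called. Without iNSC_KF replicate 1 the difference was 1.14 with an adjusted p of 0.127, and with a second quantile normalization 1.06 (adjusted p = 0.0743). NSCs were called higher than MEFs (adjusted p = 0.0119), though by 3 and 3 against values of 0, and not with a pseudocount of 10 (adjusted p = 0.105). In a fit of these 2 groups alone Myh3 did not reach the filter. With Dox the highest value was 13, in BKM_Sox17 on day 8 (8 in its replicate), and Myh3 fell in that cocktail from 7 and 1 on day 4 to 1 and 0 on day 18 (-1.08 ± 0.44, adjusted p = 0.0486). These groups share the value 1, and the call was lost without BKM_Sox17 day 4 replicate 1 (-0.29, adjusted p = 0.736), without day 18 replicate 2 (-0.79, adjusted p = 0.283) or with the left-out library put back (adjusted p = 0.169).

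Myh3 in the parallel experiment went from 6 and 9 (day 12) and 4 and 2 (day 16) in NSC medium with Dox to 11 and 9 on day 20 and 33 and 19 on day 24. In LIF/2i it was already at 12, 15, 44 and 15 with Dox, and stayed at 28, 22, 21 and 19 without. On Dox LIF/2i thus lay above NSC medium in every library of the same day, by 1.62 ± 0.37 (SE, 4 against 4; adjusted p = 0.00217). This p-value is not independent of the choice of genes, in which the libraries with Dox were the reference for those after it. With a pseudocount of 10 Myh3 was called neither between the media on Dox nor at N2B27 day 4 against MEFs. After Dox the media overlapped. At N2B27 day 4 it was 1 and 9 against 0 and 0 in MEFs, a call (adjusted p = 0.0302) that was lost without day 4 replicate 2 (adjusted p = 0.442) or without either MEF library (adjusted p = 0.102 and 0.101).

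Mylpf, the fast regulatory light chain, gave the largest contrast between media among the members. In LIF/2i it was at 2250 and 1575 on day 12, 3222 and 1969 on day 16, 3021 and 3044 on day 20 and 3390 and 3411 on day 24. In NSC medium the same days gave 277 and 304, 102 and 98, 98 and 119, and 59 and 119. Every LIF/2i library lay above every library of the other groups, where the values were 20 to 304.

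The Mylpf difference between LIF/2i and NSC medium was 3.66 ± 0.25 with Dox (adjusted p = 3.56e-08), with 4 libraries against 4. These libraries too were the reference for the values after Dox in the choice of genes. Leaving out any of the 8 libraries gave 3.48 to 3.84. After Dox, where the genes were chosen, the difference was 5.05 ± 0.25 as a description. Before the media were divided Mylpf had risen from 42 and 42 on day 4 to 160 and 84 on day 8 in N2B27 (1.42 ± 0.36, adjusted p = 0.0192). That call was lost without day 4 replicate 1 (adjusted p = 0.0895), day 4 replicate 2 (adjusted p = 0.0829) or day 8 replicate 1 (0.97, adjusted p = 0.14), and with the 2 compared groups alone (adjusted p = 0.124).

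In the NSC-medium experiment Mylpf ran only from 4 to 61. BKM_FNV cells had 26 and 27 on day 4, 40 and 38 on day 8, 38 and 36 on day 12 and 39 and 50 on day 18. The other cocktails had 10 to 22 (BKM_Sox17), 6 to 28 (BKM_Sox2) and 6 to 22 (K_FNV) over the same days. BKM_FNV thus lay above BKM_Sox17 and K_FNV on each of the 4 days without overlap, and overlapped BKM_Sox2 on day 4, where the latter had 18 and 28.

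Averaged over these days, Mylpf was higher in BKM_FNV than in BKM_Sox17 by 1.01 ± 0.21 (adjusted p = 0.000585) and than in BKM_Sox2 by 1.13 ± 0.21 (adjusted p = 8.58e-05), and lower in K_FNV than in BKM_FNV by a difference of -1.12 ± 0.21 (adjusted p = 3.45e-05), each over 8 libraries against 8. The first lies at the 2-fold threshold: it ran from 0.95 to 1.06 when each library was left out, and fell below 1 without replicate 2 of BKM_FNV day 4 or 18, replicate 1 of day 8 or 12, or replicate 2 of BKM_Sox17 on any of the 4 days. The others fell below 1 without BKM_Sox2 day 8 replicate 2 (0.98) and without K_FNV day 12 replicate 2 (-0.97), all with adjusted p below 0.05. None of these Mylpf differences was called with a pseudocount of 10.

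After Dox BKM_FNV had 48 and 61 on day 24 and 29 and 39 on day 30, again above every other cocktail (4 to 26). NSCs were at 57 and 52, iNSC_KF at 52 and 34, iNSC_BKMF at 39 and 41 and MEFs at 16 and 36. Mylpf was called higher in NSCs than in MEFs (1.11 ± 0.41, adjusted p = 0.0232), but not without MEF replicate 1 (0.57, adjusted p = 0.362), NSC replicate 1 (adjusted p = 0.0933) or NSC replicate 2 (adjusted p = 0.0596), with the left-out library put back (adjusted p = 0.138) or with these 2 groups alone (adjusted p = 0.108). Unlike the 1575 to 3411 of LIF/2i in its own table, no group of the NSC-medium experiment stood above all others in this gene. BKM_FNV stood above the other cocktails after Dox but shared the range of NSCs and the iNSC lines.

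**Figure D2:**
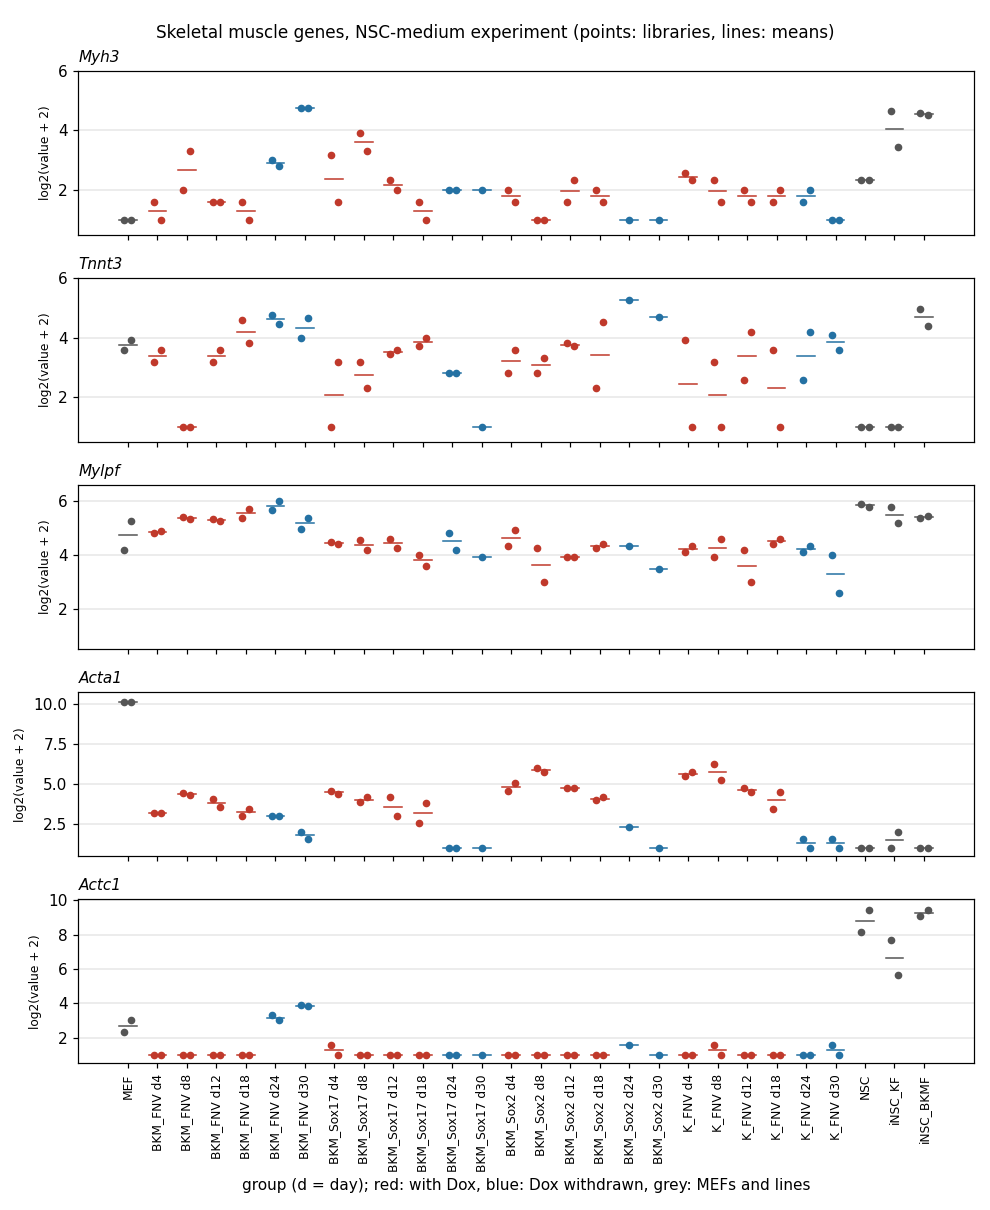
Values of the 5 analysed muscle genes in the 28 groups of the NSC-medium experiment, as log2(value + 2) on the vertical axes, with 1 point per library and a line at the group mean. Acta1 is at 1132 in both MEF libraries and 0 in both NSC libraries, Actc1 is high in NSCs and the iNSC lines (47 to 700), and Myh3 is highest in BKM_FNV on day 30 and the iNSC lines.

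Tnnt3, the troponin T of fast fibres, was scattered at low values. In the NSC-medium experiment it was at 0 in 11 of 53 libraries and had a median of 10. BKM_FNV cells were at 25 and 20 on day 24 and 14 and 23 on day 30, and iNSC_BKMF at 29 and 19. But the highest value, 36, was that of BKM_Sox2 day 24 replicate 2, and BKM_Sox2 on day 30 had 24. Values of 20 or more after Dox were therefore shared by 2 cocktails. K_FNV had 4 and 16 on day 24 and 15 and 10 on day 30, and so overlapped BKM_FNV. Replicates of 1 group could differ as much as 13 and 0 (K_FNV day 4).

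Of the comparisons tested, 1 Tnnt3 difference was called: NSCs were at 0 and 0 and MEFs at 10 and 13 (adjusted p = 0.00701). The iNSC_KF line was at 0 and 0 as well, so the lines differed from each other in this gene, iNSC_BKMF at 29 and 19 having no value near 0. Tnnt3 of the parallel experiment ranged from 4 to 44 outside NSCs, which were at 0 in both libraries. After Dox LIF/2i had 14, 9, 4 and 11 and NSC medium 25, 27, 15 and 11. Both media had a library at 11.

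Acta1, the skeletal alpha-actin, was a gene of the starting fibroblasts in these data. Both MEF libraries had 1132, and both NSC and both iNSC_BKMF libraries had 0, with iNSC_KF at 0 and 2. At day 4 the cocktails had 7 and 7 (BKM_FNV), 22 and 19 (BKM_Sox17), 22 and 32 (BKM_Sox2) and 43 and 51 (K_FNV). So the fall from MEFs was nearly complete by day 4, by a difference of -5.62 ± 0.32 (SE, 8 libraries against 2; adjusted p = 2.18e-14), and Acta1 was also called lower in NSCs than in MEFs (adjusted p = 1.32e-17).

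With Dox Acta1 differed between some cocktails. BKM_FNV had 6 to 20 over days 4 to 18, BKM_Sox17 4 to 22, BKM_Sox2 14 to 61 and K_FNV 9 to 73. BKM_FNV and BKM_Sox17 overlapped, with a difference of -0.17 ± 0.20 that was not called (adjusted p = 0.590). BKM_FNV was lower than BKM_Sox2 in every library of the same day, by -1.23 ± 0.20 (adjusted p = 2.07e-05), and K_FNV was higher than BKM_FNV by 1.34 ± 0.20 (adjusted p = 1.51e-06), the day 18 libraries overlapping at 9. Neither of these differences was called with a pseudocount of 10. From day 4 to day 18 Acta1 fell in BKM_Sox17 to 4 and 12 (-1.29 ± 0.40, adjusted p = 0.0097) and in K_FNV to 9 and 21 (-1.62 ± 0.40, adjusted p = 0.00252). The former was lost without day 18 replicate 1 (-0.68, adjusted p = 0.276) or day 4 replicate 1 (adjusted p = 0.063), the latter without day 18 replicate 1 (-1.09, adjusted p = 0.0886), and both with the 2 compared groups alone (adjusted p = 0.122 and 0.0914).

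After Dox Acta1 was at 6 and 6 (day 24) and 2 and 1 (day 30) in BKM_FNV and at 0 to 3 in the other cocktails. In the parallel experiment MEFs had 1069 and 1068, N2B27 cells 128 and 119 on day 4 and 83 and 93 on day 8, and both media ended at 1 to 21 after Dox. The difference between N2B27 day 4 and MEFs was -3.09 ± 0.74 (adjusted p = 0.00375). With Dox LIF/2i had 38, 43, 25 and 14 and NSC medium 55, 70, 38 and 327, a difference of -1.53 ± 0.52 (adjusted p = 0.0272). The 327 of NSC medium day 16 replicate 2 weighed on it, since without that library the difference was -0.77 (adjusted p = 0.144). The call was also lost without NSC medium day 12 replicate 2 (adjusted p = 0.0699), LIF/2i day 12 replicate 1 or 2 (adjusted p = 0.0595 and 0.0558) or LIF/2i day 16 replicate 2 (adjusted p = 0.0933), and with the 4 compared groups alone (adjusted p = 0.123).

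Smooth muscle genes are given beside Acta1 because fibroblasts share them. The 8 measured (among them Acta2, the smooth muscle alpha-actin, and Tagln, an actin-binding protein) summed to 79379 and 79678 in MEFs, 1340 and 1613 in NSCs, and 2294 to 14432 on day 4 of the cocktails. Cnn1 and Actg2, defining genes of that list, were at 0 in every library of NSCs and both iNSC lines. All 8 fell from MEFs to day 4, where 18.1% of all genes were called. In K_FNV over BKM_FNV 5 of 8 rose (14.5% of all genes were called), and Acta2 had a difference of 1.60 ± 0.18 (SE; adjusted p = 1.89e-08). From day 4 to day 18 of BKM_Sox17, 3 of the 8 rose while Acta1 fell (19.0% of all genes were called). Over group means Acta1 correlated with Acta2 at r = 0.72 (28 groups) and 0.91 (13 groups) and with Tagln at 0.73 and 0.93, values that share the MEF groups and their normalization. Acta1 and Acta2 coding sequences are 85.36% identical, and their transcripts share runs of up to 29 bases. Whether reads were divided between actins in the counting, and the part of this in the results, was not tested.

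Actc1, the cardiac alpha-actin that embryonic skeletal muscle also uses, had its high values in the neural stem lines. NSCs were at 286 and 700, iNSC_BKMF at 544 and 676 and iNSC_KF at 205 and 47, against 3 and 6 in MEFs. During Dox 30 of the 32 libraries of the cocktails were listed at 0 and the others at 1. After Dox BKM_FNV was listed at 8 and 6 on day 24 and 13 and 12 on day 30, the other cocktails having 0 or 1. The BKM_FNV values after Dox thus stood above every other cocktail but far below all 3 neural stem groups.

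Actc1 rose by 6.15 ± 0.41 in NSCs over MEFs (adjusted p = 1.78e-13) and was lower in iNSC_KF than in NSCs by a difference of -2.16 ± 0.41 (adjusted p = 0.000204). NSCs and iNSC_KF libraries did not overlap, but replicates of each differed severalfold, and the difference was -3.20 without iNSC_KF replicate 1 and -1.12 without replicate 2, with the 2 NSC replicates in turn giving -2.80 and -1.52. It was not called with the left-out library put back (adjusted p = 0.116) or in a fit of these 2 groups alone (adjusted p = 0.288). At day 4 all cocktails were at 0 or 1 against 3 and 6 in MEFs, a fall (adjusted p = 0.000148) that was lost with the left-out library put back (adjusted p = 0.0642). Nor was it called with a pseudocount of 10. In a fit of these groups alone Actc1 did not reach the filter. The left-out library itself listed Actc1 at 61, against 1 in its replicate.

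Actc1 in NSC medium of the parallel experiment was at 3, 1, 2 and 0 with Dox, 3 and 3 on day 20 and 40 and 21 on day 24. LIF/2i had 4 and 9 on day 12 and 24 and 46 on day 16, then 2, 2, 3 and 0 without Dox. With Dox LIF/2i was higher by 2.36 ± 0.52 (adjusted p = 0.00184), without overlap on either day. That p-value is not independent of the choice of genes, in which these libraries were the reference for those after Dox. After Dox the LIF/2i values were the lower, narrowly on day 20 and by more on day 24, which is a description because these values helped to choose the genes. N2B27 day 4 was at 0 and 0 against 4 and 8 in MEFs, a call (adjusted p = 0.049) that was lost without any 1 of the 4 libraries, N2B27 day 4 replicate 1 or 2 or MEF replicate 1 or 2 (adjusted p 0.0762 to 0.229), and with the replicate number as a block (adjusted p = 0.057). The 8 cardiac genes measured summed to 240 and 354 on day 24 in NSC medium and to 321 and 380 in LIF/2i.

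All 5 members were called between NSCs and MEFs, where 34.4% of all 20760 tested genes were called. Between iNSC_KF and NSCs 2 of 5 were called (background 8.88%), and at day 4 of the 4 cocktails against MEFs 2 of 5 (18.1%). With Dox 1 of 5 was called between BKM_FNV and BKM_Sox17 (3.72%), 2 between BKM_FNV and BKM_Sox2 (6.18%) and 2 between K_FNV and BKM_FNV (14.5%).

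From day 4 to day 18 the counts were 0 of 5 in BKM_FNV (22.9% of all genes), 2 in BKM_Sox17 (19.0%), 0 in BKM_Sox2 (17.0%) and 1 in K_FNV (10.4%). In limma's unadjusted test none of the 5 had a p under 0.05 in BKM_FNV or BKM_Sox2. In the parallel experiment 3 of 7 were called at N2B27 day 4 against MEFs (18.4% of 20468 genes), 1 of 7 from day 4 to day 8 (4.71%), and 4 of 7 between the media with Dox (15.5%). Between the media after Dox 4 of 7 lay past the same thresholds (24.5% of all genes), a count from which nothing is read because those values helped to choose the genes. With 5 or 7 members, most of these counts are too small to be told from the background share.

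**Figure D3:**
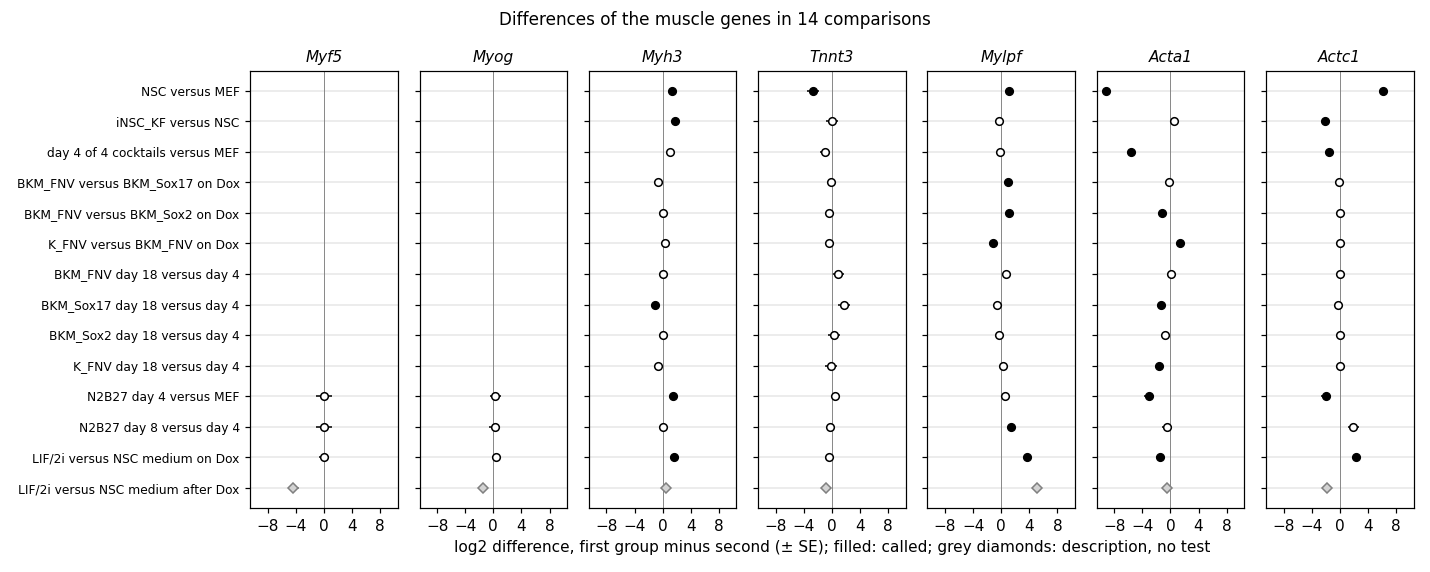
Differences of the 7 analysed genes in 14 comparisons, on the scale log2(value + 2), with bars of ± 1 SE and filled points for called genes; grey diamonds mark the comparison after Dox, a description without calls. Where a group is at 0 throughout, as for Acta1 and Tnnt3 in NSCs, Myh3 in MEFs or Myf5 in LIF/2i, the size depends on the pseudocount of 2. Sizes at other low values depend on it as well, to a lesser degree. Actc1 lies farthest to the right (6.15, NSCs against MEFs), followed by Mylpf in LIF/2i after Dox (5.05), and Acta1 lies farthest to the left in NSCs.

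After Dox in NSC medium, 3 of the 5 members (Actc1, Myh3 and Mylpf) were higher in all 4 BKM_FNV libraries than in all 9 libraries of the other cocktails, a pattern held by 6.21% of all genes. As this contrast chose the genes, nothing is read from the count. Muscle precursor genes that are not members were described in the same way: 5 of the 9 measured, among them Pax3, Pax7, Lbx1 and Eya2, lay above every other cocktail in all 4 libraries. These lists were also drawn up with results of these data known.

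Pax7, the factor of muscle stem cells that is also used in the neural tube, was at 16 and 14 on day 24 and 225 and 252 on day 30 in BKM_FNV, and at 0 to 2 in the other cocktails after Dox. Lbx1, a homeobox factor of migrating limb muscle precursors and of the dorsal spinal cord, was at 8 and 9 and then 99 and 113, against 0 to 3. Pax3 had 247 and 219 and then 451 and 429, with up to 195 elsewhere. All 3 were higher on day 30 than on day 24 of BKM_FNV, without overlap. But Lbx1 was also high in iNSC_KF (211 and 253, against 0 and 4 in NSCs and 4 and 4 in iNSC_BKMF), so its highest values were not those of BKM_FNV.

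Other lists are counted in the same way, where 6.21% of all genes lay above every other cocktail in all 4 libraries. The counts were 2 of 5 mesoderm and somite genes, 1 of 10 thick filament genes and 0 of 11 thin filament genes. They were 0 of 7 genes of excitation and energy, 0 of 3 partner factors (Mef2a, Mef2c and Mef2d) and 1 of 7 muscle inhibitors. The lineage factor Myf6 did not pass the filter and is not in that count. Ldb3 of the thin filament list, Mef2d and the inhibitor Id1 lay below every other cocktail in all 4 libraries. Nothing is read from counts on lists this small. Tcf15, a factor of the paraxial mesoderm, was at 32 and 45 and then 105 and 154 in BKM_FNV and at 0 to 8 in the other cocktails after Dox. Mybpc1, the slow myosin-binding protein C, was at 95 and 95 and then 602 and 681, against 0 to 86, and also stood at 99 and 74 in NSCs. Meox1, another somite factor, was high in several cocktails after Dox, with 1972 and 1814 in BKM_FNV, 2295 in BKM_Sox17 and 1923 in BKM_Sox2 on day 30. Mstn, the secreted inhibitor of muscle growth, was listed at 0 in 38 of 53 libraries and at 270 to 437 in the rest, and its 2 replicates differed as widely as 304 and 0 on day 24 of BKM_FNV.

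Neural stem cell genes stood apart in the same libraries, 6 of 8 (Fabp7, Nes, Olig2, Pax6, Sox2 and Sox3) lying above every other cocktail in all 4 BKM_FNV libraries, against 6.21% of all genes. Pax3, Pax7 and Lbx1 are used in the spinal cord as well as in muscle, and the part of either cell type in these values was not tested. Many genes of mature fibres, such as Ckm, Atp2a1, Tnnc2 and Myh4, were not analysed here. Myf6, a late lineage factor, was above 0 in 1 library of the NSC-medium experiment, BKM_FNV day 24 replicate 1 at 30.

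**Figure D4:**
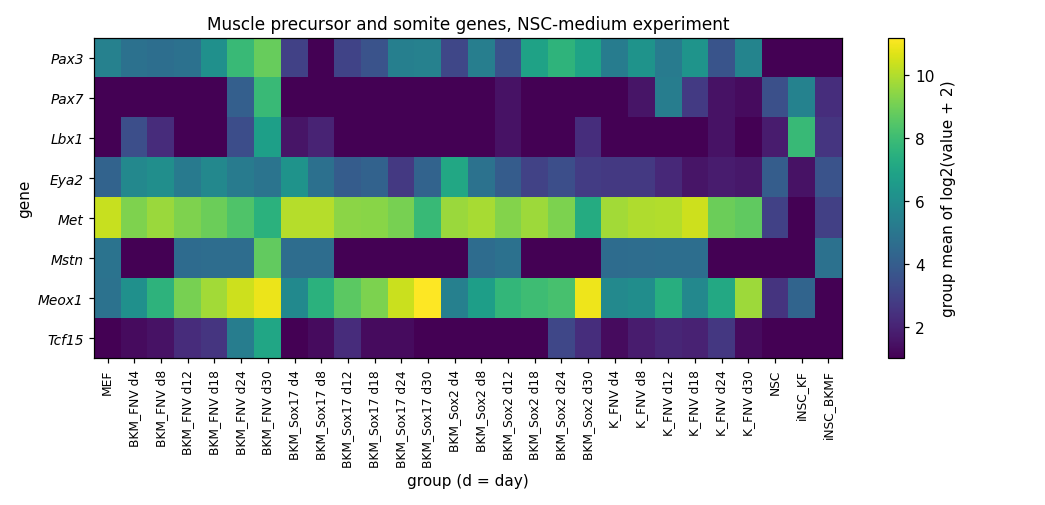
Group means of log2(value + 2) for the precursor genes Pax3, Pax7, Lbx1, Eya2 and Met, for Mstn and for the somite genes Meox1 and Tcf15 in the 28 groups of the NSC-medium experiment, as colours from low (dark) to high (yellow). Pax3, Pax7, Lbx1 and Tcf15 are high together in BKM_FNV on day 30 and lower there on day 24. Lbx1 is highest in iNSC_KF and Meox1 is high in several cocktails.

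The other muscle genes are given between the media after Dox as a description, since these libraries helped to choose the members. Of 53, 6 lay past the call thresholds on the higher and 10 on the lower side in LIF/2i, where 24.5% of all genes lay past them. Mymx, a membrane micropeptide of myoblast fusion, was at 291, 260, 554 and 761 in LIF/2i and at 1, 7, 2 and 4 in NSC medium, without overlap. Cacna1s, the voltage sensor of skeletal muscle, was at 88, 53, 144 and 74 against 1, 4, 3 and 0, and Ttn, the giant spring protein of the sarcomere, had means of 888 and 120.5. Msc, a repressor of muscle differentiation, was at 28, 39, 97 and 70 against 2, 3, 3 and 3. These 4 genes were thus higher in every LIF/2i library than in every library of NSC medium. All 4 are from the 6 on the higher side, while the larger number, 10, lay on the lower side.

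Of the 9 precursor genes 3 lay past the thresholds, all lower in LIF/2i, a share near that of all genes. Pax7 and Lbx1 were at 86 and 54 in NSC medium day 24 replicate 1 but at 4 and 7 in replicate 2, where Myf5 and Myog stood at 115 and 21. Of 8 smooth muscle genes 2 lay past the thresholds, as did 2 of 12 thick filament genes, 1 in each direction.

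With Dox 7 of the 53 other muscle genes rose and 7 fell in LIF/2i against NSC medium (15.5% of all genes were called). Tnni1, the slow troponin I, had means of 4 in LIF/2i and 37 in NSC medium (-2.76 ± 0.32), and Id3 and Id1, inhibitors that bind the partners of Myod1, were lower in LIF/2i by -2.45 ± 0.15 and -2.32 ± 0.15. Mymx was already at 6, 5, 16 and 6 in LIF/2i and 0 in all 4 libraries of NSC medium. At N2B27 day 4, 11 of 53 rose and 3 fell against MEFs (18.4% of all genes were called), with Tnnt2, the cardiac troponin T, at 924 and 917 against 51 and 45 (4.21 ± 0.42, adjusted p = 2.03e-06).

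In the NSC-medium experiment 47 other muscle genes were tested. NSCs against MEFs had 15 rising and 12 falling (34.4% of all genes were called), among them Myl1, a fast light chain, with means of 50 and 0, and Met, the receptor that guides migrating precursors, with means of 14.5 and 1268. In iNSC_KF against NSCs 4 rose and 2 fell (8.88% of all genes), led by Twist1, an inhibitor at 0 in both NSC libraries with a mean of 156 in iNSC_KF, and by Lbx1 (6.07 ± 0.35). K_FNV against BKM_FNV with Dox (14.5% of all genes) had 9 rising, led by Tnnt2 (means 484.25 and 37.5, 3.58 ± 0.28), and 4 falling, led by Eya2 (means 3.125 and 50.25, -3.38 ± 0.17).

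BKM_FNV with Dox exceeded BKM_Sox17 in 3 of these genes and lay below it in 1 (3.72% of all genes), and exceeded BKM_Sox2 in 6 (6.18%). Myl1, like the member Mylpf a myosin light chain, was among the higher genes in both (2.45 ± 0.44 and 1.72 ± 0.44), with a mean of 19.25 in BKM_FNV against 1 and 4.375. From day 4 to day 18 the counts rising and falling were 7 and 6 in BKM_FNV (22.9% of all genes), 9 and 5 in BKM_Sox17 (19.0%), 3 and 2 in BKM_Sox2 (17.0%) and 1 and 5 in K_FNV (10.4%). At day 4 against MEFs (18.1% of all genes) 7 rose, among them Ryr1, the calcium release channel (1.97 ± 0.32), and 8 fell, among them Id3 (-1.91 ± 0.12).

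The members did not share 1 pattern across groups. Over the 28 group means of the NSC-medium experiment Myh3 and Actc1 correlated at r = 0.60, Mylpf and Actc1 at 0.59, and Acta1 and Actc1 at -0.34, which describe groups that share their normalization. In the parallel experiment Myog and Myf5 correlated at 0.87 and Acta1 and Myh3 at -0.76 over 13 groups. The genes whose group means were most like the mean of the standardized members were Mycl, Nrarp, Nnat, Csnk1e, Zik1, Sall1, Bcl7a and Fem1b in the NSC-medium experiment (r from 0.83 to 0.79). Over the parallel groups they included Magel2, Gm5724, Scrt2, Nfasc, Dnmt3b, Tbc1d16 and Ankrd6 (r from 0.80 to 0.76).

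On GRCm38 the genes lie on several chromosomes and not in a cluster: Myog on 1 (134289989 to 134292548), Myf5 on 10 (107482908 to 107486134), Myh3 on 11 (67078300 to 67102291), Actc1 on 2 (114047282 to 114053548) and Acta1 on 8 (123891769 to 123894751). Tnnt3 and Mylpf are both on chromosome 7, at 142498836 to 142516009 and 127208890 to 127214298. The GENCODE annotation has other genes overlapping Tnnt3 (Prr33), Actc1 (A530058N18Rik) and Acta1 (Gm20388) on the opposite strand. Whether the counting used strand is not given in the sources used here, so reads of these pairs cannot be told apart.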

How the data were processed

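Poly(A) RNA of 74 samples was analysed from 80 columns of 2 tables, 6 samples standing in both. The authors deposited normalized tag counts, treated here as a score because columns of a table, but for 1, nearly share 1 distribution. The submitters' processing notes name Bowtie2, RSEM and mm10. The tables were normalized separately and were not compared. The fits used limma 3.58.1 with trend in R 4.3.3 on log2(value + 2), genes with at least 10 in at least 2 libraries (20760 and 20468), 1 mean per group, and Benjamini-Hochberg adjustment over all genes. A call needs an adjusted p under 0.05 and a difference of at least 1. BKM_Sox2 day 24 replicate 1 was left out (24.5% of genes at 0), and 4 columns were not used. Named genes are the members, up to 6 other muscle genes per comparison with the largest called differences, up to 3 of each other list, and the 8 most like the members per table; the precursor, somite and Mybpc1, Mstn and Myf6 values after Dox were named after their values were seen. Members, lists and comparisons were chosen with earlier results of these data known. 14 comparisons were fitted with a test and 8 described; the test between media after Dox is not reported, since its libraries helped to choose the members. Same-numbered libraries did not deviate together (median correlations 0.000453 and 0.0100). The fit was tested on simulated data. Promoters came from RefSeq. Some genes are not reported here.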

Additional observations from a re-analysis of the deposited data

Results flagged for a closer look

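The change from day 4 to day 18 was compared between cocktails for each member, 30 differences in all, chosen after seeing the data. Mylpf was singled out because its libraries moved up in BKM_FNV (26 and 27 to 39 and 50) and down in BKM_Sox17 (20 and 19 to 14 and 10), a difference of 1.33 between the changes (SE 0.585, limma adjusted p = 0.216). BKM_Sox17 and K_FNV also moved in opposite directions in Mylpf, by -0.917 (limma adjusted p = 0.291). Neither passed the test. The Acta1 change was higher in BKM_FNV (7 and 7 to 6 and 9) than in K_FNV (43 and 51 to 9 and 21) by 1.68 (SE 0.567, limma adjusted p = 0.0249).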

How the results depend on the processing

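Counts of called members moved by over 1.5 times under some settings, and the cause was not tested. With a pseudocount of 10 they were 3 in NSCs against MEFs, 1 in iNSC_KF against NSCs, 1 at day 4 against MEFs, 0 in BKM_FNV against BKM_Sox17, 0 against BKM_Sox2 and 0 in K_FNV against BKM_FNV with Dox, 0 from day 4 to 18 of BKM_Sox17, 1 at N2B27 day 4 and 2 between the media after Dox. A minimum value of 50 gave 3, 1 and 1 for NSCs against MEFs, iNSC_KF and BKM_Sox17 day 18, where fewer genes were tested. A second quantile normalization gave 1 for iNSC_KF. Putting back the left-out library gave 1 each for iNSC_KF, day 4 and BKM_Sox17 day 18. Fitting the compared groups alone gave 3 in NSCs against MEFs, 0 in iNSC_KF, 1 at day 4, 0 in BKM_Sox17 and 0 in K_FNV at day 18, 1 at N2B27 day 4 and 0 at N2B27 day 8. Leaving out each library gave 4 to 5 (NSCs against MEFs), 1 to 2 (iNSC_KF), 2 to 3 (day 4), 0 to 1 (BKM_FNV against BKM_Sox17), 1 to 2 (against BKM_Sox2), 1 to 2 (K_FNV against BKM_FNV), 0 to 3 (BKM_Sox17 day 18), 0 to 1 (K_FNV day 18), 0 in BKM_FNV and BKM_Sox2 day 18, 1 to 2 (N2B27 day 4), 0 to 1 (N2B27 day 8), 3 to 4 (media with Dox) and 3 to 5 (media after Dox). The counts between the media after Dox are a description. Of 29 member calls, 4 of them from that comparison, 9 were kept wherever they were fitted, 2 of these from it. A pseudocount of 10 alone lost 16 of the 29. The fibroblast gene Col3a1 changed sign between iNSC_KF and NSCs without NSC replicate 1 (-0.29, limma adjusted p = 0.531), the range over the libraries left out being -0.29 to 4.59. With the replicate number as a block, N2B27 day 4 had 2 called members, and no member count moved by over 1.5 times; the numbers did not pair the libraries. No block was fitted for comparisons with NSCs, whose columns could be matched to the group but not to single samples. Read depth is unknown, so low values carry no counting error here.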
